A study of Mus musculus with 6 samples.

Results

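The values described here are the reads of 34 genes of the T cell lineage in RNA libraries of cortical thymic epithelial cells (cTECs), the epithelial cells of the outer thymus. The genes were taken by symbol, matched to the deposited gene identifiers, and all 34 of them were found among 50600 identifiers. The libraries hold polyadenylated RNA of primary cTECs, and the mice were 8 to 10 weeks old. The KO group was strain B6.B6CB-Psmb11tm1Smta (Psmb11-/-), which lacks Psmb11, and the WT group was the strain labelled Psmb11+/+. Psmb11 encodes β5t, a proteasome subunit of cTECs. Each genotype has 3 libraries, called replicates A, B and C. The labels do not say whether replicates came from separate mice, nor how cTECs were isolated or sorted, so p-values measure only the spread between these libraries. Each count is a read assigned to the coding strand of a gene, and CPM is the count scaled to a common library size with TMM factors.

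Thymocytes are the developing T cells of the thymus, and the cortex holds mainly those with both coreceptors, CD4 and CD8. They lie against cTECs, which present peptides to them, and some cTECs enclose thymocytes completely. A cTEC preparation can therefore carry thymocyte RNA; whether the reads described here came from attached or enclosed thymocytes or from the epithelium itself was not tested. Thymocytes rearrange their receptor genes with the RAG recombinase, assemble the receptor with the CD3 chains, and pass its signal through the kinases Lck and Zap70. Not every gene of the list belongs to T cells alone: Thy1 is also carried by fibroblasts, Gata3 is used in several epithelia, and Ptprc and Coro1a are expressed across leukocytes.

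Library totals lay between 34265035 and 36713388 gene counts in KO and between 34660349 and 39224292 in WT. Psmb11, the check of the labels, had 67, 36 and 41 counts in the KO libraries A to C, against 8293, 9297 and 10027 in WT. Of 16 markers of cortical epithelium, 12 were called lower and 2 higher in KO, where 10.7% of all genes tested were called lower and 12.3% higher. Psmb11, lower through the genotype itself, was 1 of the 12. The 16 markers summed to 8155 to 9203 CPM in KO, against 12040 to 12550 CPM in WT, of which Psmb11 gave 240.6 to 258.7 CPM in WT. The 34 T lineage genes together had 190.0 to 313.2 CPM, which was 0.0189% to 0.0317% of gene counts.

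The sequences that follow are the 250 bases upstream of the RefSeq transcription start (build GRCm38.p6, coding strand, 5′ to 3′) for 4 members, chosen as examples of larger and smaller ratios of KO replicate A to the other libraries. The ratios, given in full later, were 5.32 for Cd53, 2.80 for Zap70, 1.585 for Rag1 and 1.28 for Dntt. Capitals mark matches, on either strand, to a RUNX motif (TGTGGT), to an ETS core (AGGAAG) or to a TCF/LEF motif (CTTTGA).

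Cd53, chr3:106790150-106790399, minus strand: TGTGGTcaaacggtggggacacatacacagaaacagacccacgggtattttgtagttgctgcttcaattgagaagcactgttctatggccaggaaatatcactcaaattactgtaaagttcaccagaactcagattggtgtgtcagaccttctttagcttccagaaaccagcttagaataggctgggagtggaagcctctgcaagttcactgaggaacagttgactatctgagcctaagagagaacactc
Zap70, chr1:36761548-36761797, plus strand: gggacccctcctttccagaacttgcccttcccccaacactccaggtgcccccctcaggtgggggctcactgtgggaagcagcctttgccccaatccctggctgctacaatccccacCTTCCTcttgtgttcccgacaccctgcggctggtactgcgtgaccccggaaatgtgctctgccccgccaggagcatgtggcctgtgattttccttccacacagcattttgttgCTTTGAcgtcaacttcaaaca
Rag1, chr2:101649533-101649782, minus strand: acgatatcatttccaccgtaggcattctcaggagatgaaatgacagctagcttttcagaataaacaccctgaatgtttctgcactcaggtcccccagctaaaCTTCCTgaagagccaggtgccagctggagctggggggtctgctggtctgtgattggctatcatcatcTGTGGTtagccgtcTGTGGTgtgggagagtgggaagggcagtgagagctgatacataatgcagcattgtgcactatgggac
Dntt, chr19:41029025-41029274, plus strand: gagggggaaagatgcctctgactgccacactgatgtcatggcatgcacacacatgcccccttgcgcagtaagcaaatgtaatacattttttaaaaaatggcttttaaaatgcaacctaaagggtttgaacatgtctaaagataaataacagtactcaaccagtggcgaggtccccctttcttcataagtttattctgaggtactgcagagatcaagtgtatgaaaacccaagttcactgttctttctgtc

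Of the 34 genes, 26 had such a window in the RefSeq table. The RUNX motif was in 4 of the 26 (15.38%) and in 14.15% of 27025 promoters. The ETS core was in 10 (38.46%, against 29.15%), and the TCF/LEF motif was in 4 (15.38%, against 14.08%). An E-box, CANNTG, not marked in capitals, was in 20 (76.92%, against 66.05%). The Rag1 window holds 2 RUNX matches and 1 ETS core, the Zap70 window 1 ETS core and 1 TCF/LEF match, the Cd53 window 1 RUNX match, and the Dntt window none of the 3. A match describes these letters and is not evidence of binding.

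Most T lineage transcripts were detected at low levels in every library. Mean levels over the 6 libraries ran from 0.117 CPM (Ptcra) to 30.5 CPM (Tox), and 21 of the 34 genes had a mean under 5 CPM, 5 of them under 1 CPM. Per transcript length, as TPM, Thy1 was the highest at 23.5, followed by Tcf7 at 16.0, Tox at 13.7, Lck at 12.4 and Coro1a at 10.5. The lowest TPM values were 0.207 for Ptcra, 0.248 for Il7r and 0.265 for Rag2. The plot of levels by library shows that 1 library, KO replicate A, had most of the highest values.

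**Figure D1:**
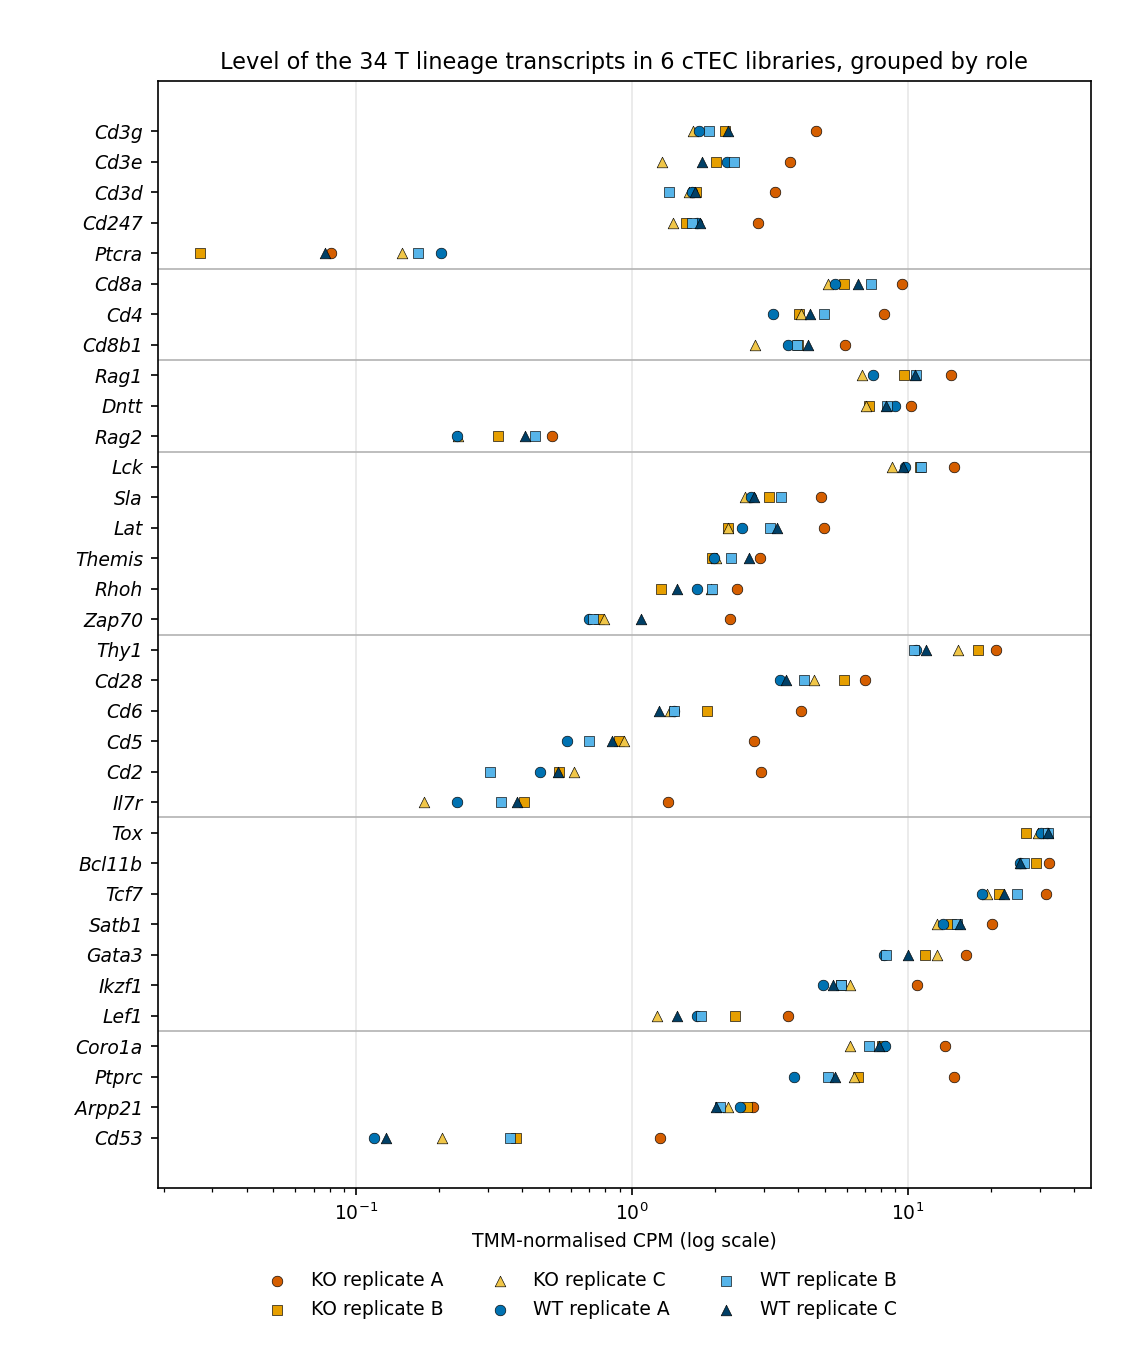
Level of each of the 34 T lineage transcripts, in TMM-normalised CPM on a log axis, in KO replicates A to C (orange and yellow) and WT replicates A to C (blue), with rows grouped by role. KO replicate A holds the highest point for 32 of the 34 genes, and Ptcra lies below 0.21 CPM in every library.

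KO and WT differed in few of these genes. Of the 33 that passed the filter on low counts, 4 were called higher in KO, namely Thy1, Cd28, Gata3 and Ptprc, and 29 were not called (edgeR quasi-likelihood, adjusted p below 0.05 over all genes). None was called lower, with edgeR or with DESeq2, and none had an unadjusted p under 0.05 in that direction, against 10 in the other. Ptcra was the gene that did not pass the filter. Among all 16938 genes tested, 12.3% were called higher and 10.7% lower, so 4 of 33 called higher is near the background. The log2 fold change was above 0 for 29 of the 33 genes and below 0 for 4, with a median of 0.25, while the median over all genes was -0.0008. In bulk RNA, more cells of a type and more RNA per cell cannot be told apart.

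KO replicate A carried most of that shift. Without it the median log2 fold change of the members was -0.06, with 13 genes above 0 and 20 below. The value was smaller for all 33, which follows from KO replicate A being their highest KO library and is not separate support. Only Thy1 and Gata3 were then called higher and none lower, with 4 genes at an unadjusted p under 0.05 in the higher direction and 3 in the lower (edgeR). Of all genes tested without that library, 10.7% were called higher and 9.38% lower. The count of members called was also 2 without WT replicate A or without WT replicate C, 7 when KO replicate B was left out and 10 when KO replicate C was. The share of all genes called was not computed for these omissions, so their counts cannot be set against a background. Cd2, Cd5, Cd6, Cd53, Lef1 and Bcl11b were called when KO replicate C was left out, and Cd2, Cd5 and Ikzf1 when KO replicate B was left out. The levels of the genotypes did not overlap for 6 genes, all higher in KO: Cd2, Cd5, Cd28, Thy1, Gata3 and Ptprc. For Cd2 the lowest KO library, at 0.542 CPM, was barely above the highest WT library, at 0.537 CPM. Over all genes, 19.2% did not overlap with KO above WT and 20.1% with KO below, and 0 members lay below.

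**Figure D2:**
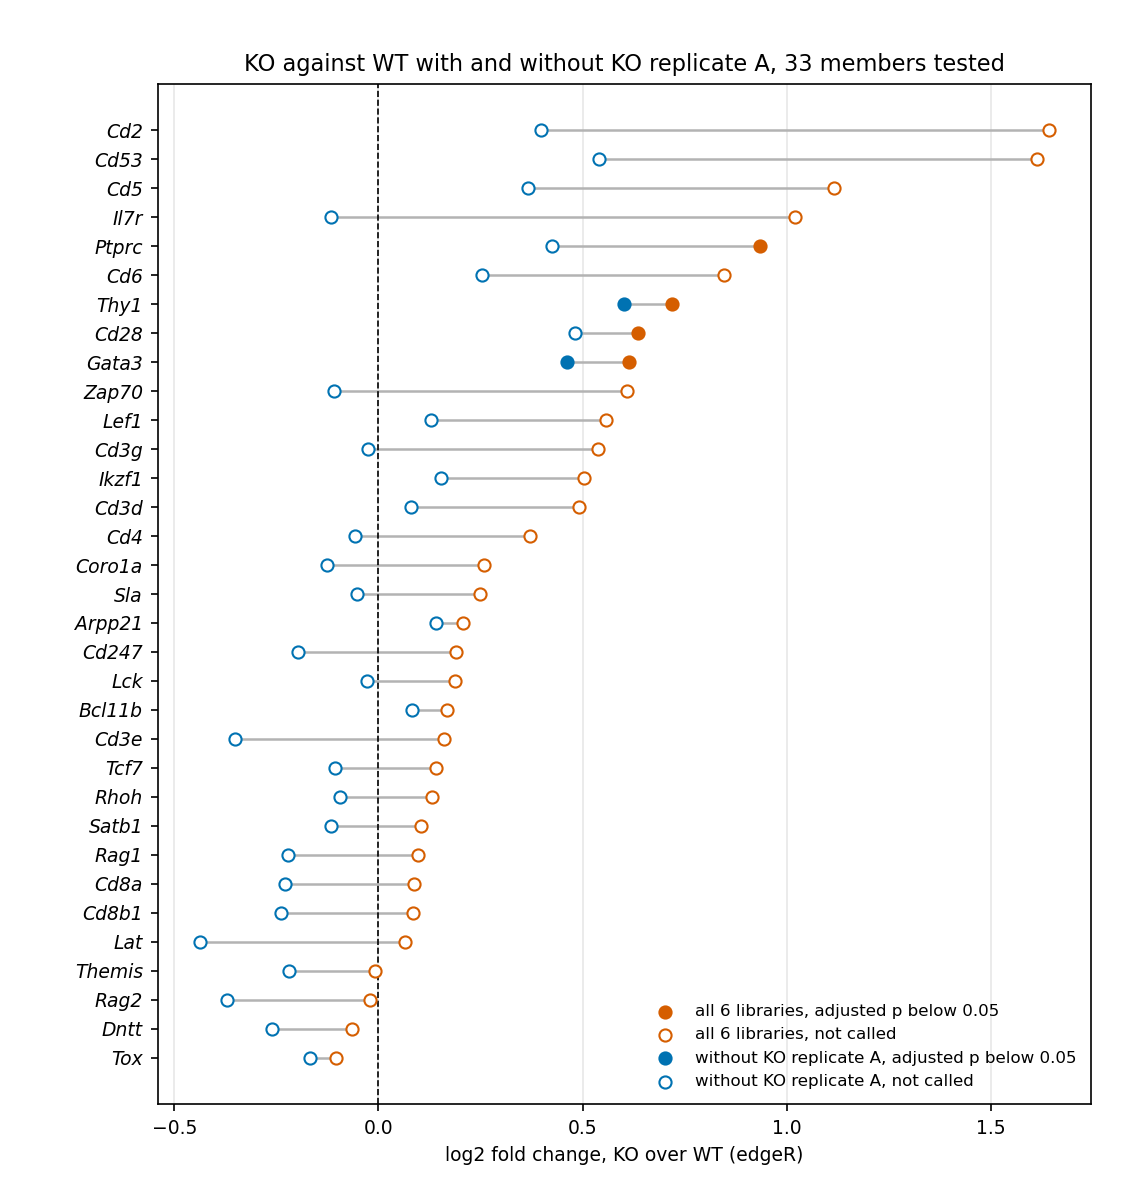
Log2 fold change of KO over WT (edgeR) for the 33 tested T lineage genes, with all 6 libraries (orange) and without KO replicate A (blue); filled points are called at an adjusted p below 0.05. Every blue point lies to the left of its orange point, since KO replicate A was the highest KO library for each gene. Only Thy1 and Gata3 are filled in both.

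The chains of the T cell receptor complex were low, and 4 of the 5 were highest in KO replicate A. The CD3 chains Cd3e, Cd3d and Cd3g and the zeta chain Cd247 carry the signal of the receptor, and Ptcra encodes the pre-T alpha chain of the early receptor. Cd3e (chromosome 9, 44998740 to 45009627, minus strand, GRCm38) had 3.74, 2.01 and 1.29 CPM in the KO libraries (in the order A, B, C here and throughout), against 2.21, 2.34 and 1.79 CPM in WT. Its lowest and its highest library were both KO, and the log2 fold change was 0.16 ± 0.31 (SE; edgeR adjusted p = 0.761). Cd3g had 4.66, 2.169 and 1.67 CPM in KO, against 1.74, 1.89 and 2.23 CPM in WT, a log2 fold change of 0.54 ± 0.32 (adjusted p = 0.253). KO replicate B lay within the WT range and KO replicate C just under it, and without KO replicate A the value was -0.03. Cd3g and Cd3e flank Cd3d within one stretch of chromosome 9 and were counted by strand. Cd3d and Cd247 were likewise highest in KO replicate A, at 3.28 and 2.85 CPM, with the other libraries at 1.36 to 1.71 and 1.40 to 1.76 CPM. Ptcra had 3, 1 and 5 counts in KO, against 7, 6 and 3 in WT, so KO replicate A did not stand out there. Its ratio to the other 5 libraries was 0.651 with a counting interval of 0.127 to 2.21, too wide to place this gene with or apart from the CD3 chains.

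The coreceptors gave the same picture at about 3 to 10 CPM. Cd4, which marks helper lineage cells, had 8.21, 4.01 and 4.09 CPM in KO, against 3.25, 4.95 and 4.42 CPM in WT. Cd8a, which with Cd8b1 forms the CD8 coreceptor, had 9.50, 5.86 and 5.14 CPM in KO, against 5.45, 7.32 and 6.57 CPM in WT. Both genes were highest in KO replicate A, and the other KO libraries lay within or below the WT range. The log2 fold changes were 0.37 ± 0.25 for Cd4 (edgeR adjusted p = 0.333) and 0.09 ± 0.20 for Cd8a (adjusted p = 0.806), and they were -0.06 and -0.23 without KO replicate A. Cd8b1, next to Cd8a on chromosome 6, had 5.92 CPM in KO replicate A and 2.78 to 4.35 CPM elsewhere.

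Of the recombination genes, Rag1 and Dntt were well counted, Rag2 had few reads, and none was called. Rag1, a subunit of the recombinase that cuts the receptor genes, had 14.35, 9.65 and 6.81 CPM in KO, against 7.49, 10.69 and 10.64 CPM in WT. Its KO libraries spanned the whole WT range and went beyond it on both sides. The log2 fold change was 0.10 ± 0.22 (edgeR adjusted p = 0.794). Rag1 overlaps the gene model B230118H07Rik on its own strand, so reads there may be missing from its count. Dntt, the terminal transferase that adds bases at receptor joints, had 10.2, 7.24 and 7.04 CPM in KO, against 8.94, 8.41 and 8.34 CPM in WT. The WT libraries lay between KO replicate A and the other KO libraries, and the log2 fold change was -0.065 ± 0.14 with all libraries and -0.26 ± 0.11 without KO replicate A (edgeR adjusted p = 0.783 and 0.113). Rag2, the partner of Rag1, had 8 to 19 counts per library, and counting error alone gave 28.9% of its level in the 5 libraries other than KO replicate A.

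None of the 6 genes that act behind the receptor was called. Lck, the kinase bound to the coreceptors, had 14.7, 11.1 and 8.77 CPM in KO, against 9.72, 11.1 and 9.56 CPM in WT, a log2 fold change of 0.19 ± 0.15 (edgeR adjusted p = 0.423). Sla, an adaptor that lowers receptor levels in thymocytes, had 4.85, 3.15 and 2.57 CPM in KO, against 2.70, 3.45 and 2.76 CPM in WT, a log2 fold change of 0.25 ± 0.22 (adjusted p = 0.461). In both genes KO replicate A was the highest library and KO replicate C the lowest. Zap70, the kinase recruited to the phosphorylated receptor, had 2.26 CPM in KO replicate A and 0.696 to 1.07 CPM in the others. Lat, the membrane scaffold of the signal, had 4.98 CPM in KO replicate A and 2.22 to 3.35 CPM in the others. Themis, a regulator of positive selection, and Rhoh, an atypical GTPase needed for Zap70 function, differed less, with 2.91 against 1.95 to 2.66 CPM and 2.40 against 1.27 to 1.95 CPM.

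Of the 6 other surface receptors, Thy1 and Cd28 were called higher in KO and 4 were not called. Thy1, a surface glycoprotein of T cells and fibroblasts (chromosome 9, 44043384 to 44048579, plus strand), had 20.8, 18.0 and 15.2 CPM in KO, against 10.65, 10.5 and 11.6 CPM in WT. Every KO library lay above every WT library, and the rise was 1.65-fold (log2 fold change 0.72 ± 0.11, edgeR adjusted p = 4.92e-04). It was called without any 1 of the 6 libraries, with log2 fold changes from 0.60 to 0.83. Cd28, the costimulatory receptor for B7 ligands, had 6.97, 5.88 and 4.56 CPM in KO, against 3.42, 4.20 and 3.61 CPM in WT, again with no overlap. Its rise was 1.55-fold (log2 fold change 0.635 ± 0.16, edgeR adjusted p = 0.014). It was no longer called on leaving out KO replicate A (0.48, edgeR adjusted p = 0.0596), without WT replicate A (0.57, 0.0598) and without WT replicate C (0.61, 0.062), and with limma on log2(TPM + 1) or log2(TPM + 0.1) (adjusted p = 0.131 and 0.151).

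Cd2, Cd5, Cd6 and Il7r were highest in KO replicate A by a wide margin. KO replicate B also lay above every WT library in these 4 genes, and KO replicate C in Cd2 and Cd5, by smaller amounts. Some of these margins were very small: KO replicate B and WT replicate C had 20 and 21 counts of Cd2, and 15 each of Il7r. Cd2, an adhesion receptor, had 2.93, 0.542 and 0.614 CPM in KO, against 0.464, 0.306 and 0.537 CPM in WT. KO replicate A was 4.78-fold above the next library, and the log2 fold change of 1.64 ± 0.59 was not called (edgeR adjusted p = 0.0642). Il7r, the receptor for interleukin 7, which is low in double positive thymocytes, had 1.35, 0.407 and 0.175 CPM in KO, against 0.232, 0.334 and 0.384 CPM in WT. Its log2 fold change was 1.02 ± 0.60 (adjusted p = 0.254), and -0.115 without KO replicate A. Cd5 and Cd6, related receptors that restrain receptor signals and neighbours on chromosome 19, had 2.77 and 4.09 CPM in KO replicate A. Their other libraries lay between 0.580 and 0.935 CPM and between 1.25 and 1.87 CPM.

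The nuclear regulators included the most abundant members, and 1 of the 7, Gata3, was called. Bcl11b, needed for T lineage commitment, had 32.4, 29.0 and 25.6 CPM in KO, against 25.5, 26.4 and 25.6 CPM in WT, a log2 fold change of 0.17 ± 0.07 (edgeR adjusted p = 0.13). Tox, a regulator of CD4 lineage development, had 31.9, 26.7 and 29.7 CPM in KO, against 30.4, 32.3 and 32.1 CPM in WT, a log2 fold change of -0.10 ± 0.06 (adjusted p = 0.284). Tox was thus one of the 2 members that were not highest in KO replicate A, where it had 1.06 times the level of the other libraries. Gata3 (chromosome 2, 9857078 to 9890034, minus strand), a regulator of CD4 cells that several epithelia also use, had 16.2, 11.55 and 12.8 CPM in KO, against 8.18, 8.29 and 9.97 CPM in WT. The groups did not overlap and the rise was 1.53-fold (log2 fold change 0.61 ± 0.13, edgeR adjusted p = 0.00446). It was called without any 1 library, at 0.46 to 0.71, but not with limma on log2(TPM + 1) or log2(TPM + 0.1) (adjusted p = 0.0682 and 0.0717). Tcf7, Satb1, Ikzf1 and Lef1 had 31.55, 20.2, 10.7 and 3.66 CPM in KO replicate A. Their other libraries lay at 18.5 to 24.7, 12.7 to 15.4, 4.90 to 6.17 and 1.23 to 2.36 CPM, and none of the 4 was called.

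Among the genes shared with other leukocytes, Ptprc was called. Ptprc encodes CD45, the phosphatase carried by nearly all blood cells, and had 14.6, 6.56 and 6.37 CPM in KO, against 3.86, 5.15 and 5.42 CPM in WT. The groups did not overlap, and KO replicate A was 2.23-fold above the next library. The rise was 1.91-fold (log2 fold change 0.93 ± 0.28, edgeR adjusted p = 0.028), and the log2 fold change was 0.42 without KO replicate A (adjusted p = 0.0787). The call was also lost without WT replicate A (0.80, edgeR adjusted p = 0.105), B (0.98, 0.0758) or C (1.03, 0.0581). DESeq2 (adjusted p = 0.108), the robust edgeR fit (0.199) and limma on log2(TPM + 1) or log2(TPM + 0.1) (0.139 and 0.134) did not call Ptprc. Coro1a, an actin regulator of leukocytes, had 13.6, 8.08 and 6.14 CPM in KO, against 8.27, 7.21 and 7.85 CPM in WT. Cd53, a tetraspanin of leukocytes, had 47, 14 and 7 counts in KO and 4, 13 and 5 in WT, which is 1.27, 0.380 and 0.205 CPM against 0.116, 0.362 and 0.128 CPM. Arpp21, a phosphoprotein of immature thymocytes and neurons, had 2.75, 2.60 and 2.22 CPM in KO, against 2.47, 2.09 and 2.02 CPM in WT, with KO replicate A barely above the rest. Coro1a, Cd53 and Arpp21 were not called (edgeR adjusted p = 0.439, 0.103 and 0.438).

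KO replicate A stood apart across the list. It was the highest library for 32 of 34 members and the lowest for none, while 17.2% of all genes tested were highest in it. It was at least 1.5 times the mean of the other 5 libraries for 24 members, against 6.87% of all genes, and at least 2 times for 10. The median ratio was 1.63, whereas the same ratio for each other library had a median of 0.788 to 0.918 over the members. Over all genes the median ratio was 0.994 in KO replicate A. The other 5 libraries include 3 of WT, so the ratio also holds any difference between the genotypes. Compared with the WT mean, the median log2 difference of the members was 0.754 in KO replicate A, 0.067 in B and -0.135 in C. The counting interval of the ratio (95%, exact binomial, counting error only, since it is 1 library) lay above 1 for 30 members. The exceptions were Rag2, Arpp21, Tox and Ptcra. The share of all genes with such an interval was not computed, so this count does not set the members apart from other genes.

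The excess was unequal between members. The 3 largest ratios were those of Cd2 (5.96, interval 4.46 to 7.97), Cd53 (5.32, 3.44 to 8.23) and Il7r (4.39, 2.90 to 6.47). The 3 smallest were Arpp21 (1.21, 0.962 to 1.502), Tox (1.06, 0.9901 to 1.12) and Ptcra. Between them lay Cd5 at 3.51, Zap70 at 2.80, Cd6 at 2.79, Ptprc at 2.67, Cd3g at 2.40, Rag1 at 1.585, Lck at 1.46 and Dntt at 1.28. By role, the median ratio was 3.15 for the other surface receptors, 2.24 for the leukocyte-wide genes and others, 1.94 for the receptor chains, 1.58 for the coreceptors, 1.56 for signalling, 1.55 for recombination and 1.49 for the nuclear regulators. The counting intervals of Cd2 and of Rag1 (1.42 to 1.74) do not overlap, but Cd2 was picked as the largest ratio. These intervals also leave out the spread between libraries, which for Rag1 was 19.9% over the other 5, against 5.51% from counting. Whether members differ beyond that spread was not tested.

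**Figure D3:**
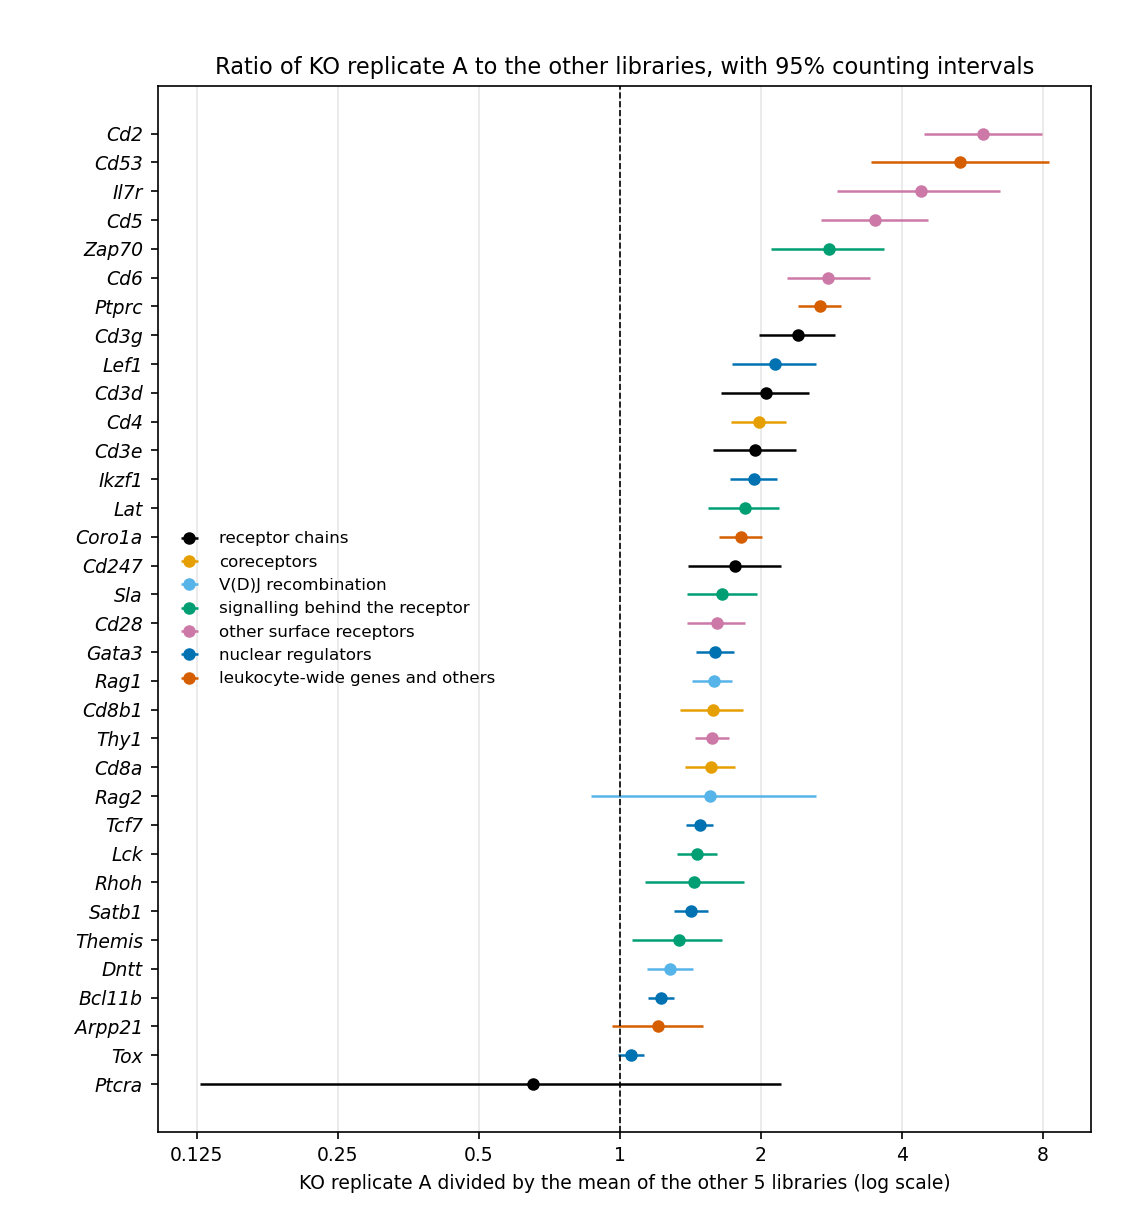
Level in KO replicate A divided by the mean of the other 5 libraries, on a log axis, for each of the 34 genes; points are coloured by role and bars are 95% counting intervals. Cd2, Cd53 and Il7r lie above 4, and the bars of Rag2, Arpp21, Tox and Ptcra cross 1.

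Summed over the list, the KO libraries had 313.2, 215.2 and 195.7 CPM and the WT libraries had 190.0, 212.5 and 209.0 CPM. The KO mean was 241 ± 63.0 CPM and the WT mean 204 ± 12.1 CPM (SD, n = 3 libraries for each), a ratio of 1.18 that became 1.01 without KO replicate A. KO replicate A had 1.53 times the mean of the other libraries. Over those 5 libraries the median coefficient of variation of a member was 15.9%, against 9.91% from counting alone.

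Other cell markers moved with KO replicate A as well, and their part in the T lineage values was not tested. Of 30 further T lineage genes, 18 were at least 1.5 times higher there (median ratio 1.64), among them the receptor constant genes Trac (2.69) and Trbc2 (1.64). Their summed level was not highest in KO replicate A, at 1046, 1024 and 1069 CPM in KO, against 920.4 to 959.2 CPM in WT. Much of that sum came from Notch1 and Runx1, which epithelia also express and whose levels are given under the other observations. The sum therefore does not measure T lineage RNA alone. Of 10 genes of mature single positive thymocytes, 8 were at least 1.5 times higher in KO replicate A (median 2.76). Their sum was again not highest there, at 402.8, 409.3 and 414.2 CPM in KO, against 322.8 to 377.0 CPM in WT. It too is weighted towards the most abundant genes, and Ccr7 and Itgb7, given below, made up little of it. Between genotypes 2 of the 9 tested, Ccr7 and Klf2, were called higher in KO (6 without KO replicate B), 1, Itgb7, lower, and 6 were not called. Over all genes tested, 12.3% were called higher and 10.7% lower. Ccr7, the chemokine receptor of thymocytes that enter the medulla, had 6.14, 2.52 and 2.60 CPM in KO, against 0.725, 0.724 and 1.23 CPM in WT. It was called higher with all libraries (log2 fold change 2.06, edgeR adjusted p = 0.00143) and without any 1 library (1.51 without KO replicate A, adjusted p = 0.00136). Itgb7, an integrin chain, had 12.7, 11.6 and 11.4 CPM in KO, against 15.9, 19.0 and 16.85 CPM in WT, and was called lower (-0.54, edgeR adjusted p = 8.15e-04), also without any 1 library.

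Markers of B cells, endothelium and tuft cells also summed highest in KO replicate A, while those of myeloid cells summed highest in KO replicate C. Of 9 B cell genes 8 were at least 1.5 times higher in KO replicate A (median 2.59), with no gene at 0 throughout. Their summed level was 58.5 CPM there, 27.4 and 29.0 CPM in the other KO libraries and 29.5 to 35.6 CPM in WT. Only 4 of the 9 passed the filter on low counts, and 0 were called higher or lower in KO. The share of 6.87% of all genes at that ratio was taken over genes that passed this filter. Of 17 dendritic cell and macrophage genes 11 were at least 1.5 times higher in KO replicate A (median 2.45), against a mean that includes 3 WT libraries. Their sum was 74.3, 69.3 and 77.4 CPM in KO, against 36.7 to 41.1 CPM in WT. The KO sum was 1.86 times that of WT, and 1.85 times without KO replicate A. Of these genes 8 were called higher in KO (5 without KO replicate A or WT replicate A) and 0 lower. Of 10 endothelial genes 7 were at least 1.5 times higher there (median 2.23). They summed to 65.2 CPM in KO replicate A, 24.65 and 39.55 CPM in the other KO libraries and 20.5 to 49.1 CPM in WT. The natural killer cell list, with at most 78 counts in a library, had a median ratio of 4.09. It summed to 2.10 CPM in KO replicate A, 0.84 and 0.99 CPM in the other KO libraries and 0.306 to 0.486 CPM in WT, with Ncr1 at 0 in every library. Of 5 tuft cell genes 3 were (median 1.65), with 182.8, 145.7 and 146.8 CPM in KO, against 93.6 to 101.6 CPM in WT, and all 5 were called higher in KO (4 without KO replicate A or WT replicate C). Of 8 medullary epithelial genes 3 were (median 1.28), with 5330 to 5711 CPM in KO, against 3963 to 4532 CPM in WT, and all 8 were called higher (6 without WT replicate B, as without KO replicate A). The 9 fibroblast and pericyte genes had no ratio of 1.5 or more (median 1.10), and 6 of them were called higher in KO and 1, Sfrp1, lower. Over all genes tested 12.3% were called higher and 10.7% lower. The fibroblast and pericyte genes summed to 1458 to 1526 CPM in KO, against 1116 to 1251 CPM in WT. The 16 cortical epithelial genes had a median ratio of 0.87, against a mean that includes 3 WT libraries; compared with the WT mean, their median log2 difference was -0.36 in KO replicate A, -0.44 in B and -0.49 in C.

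**Figure D4:**
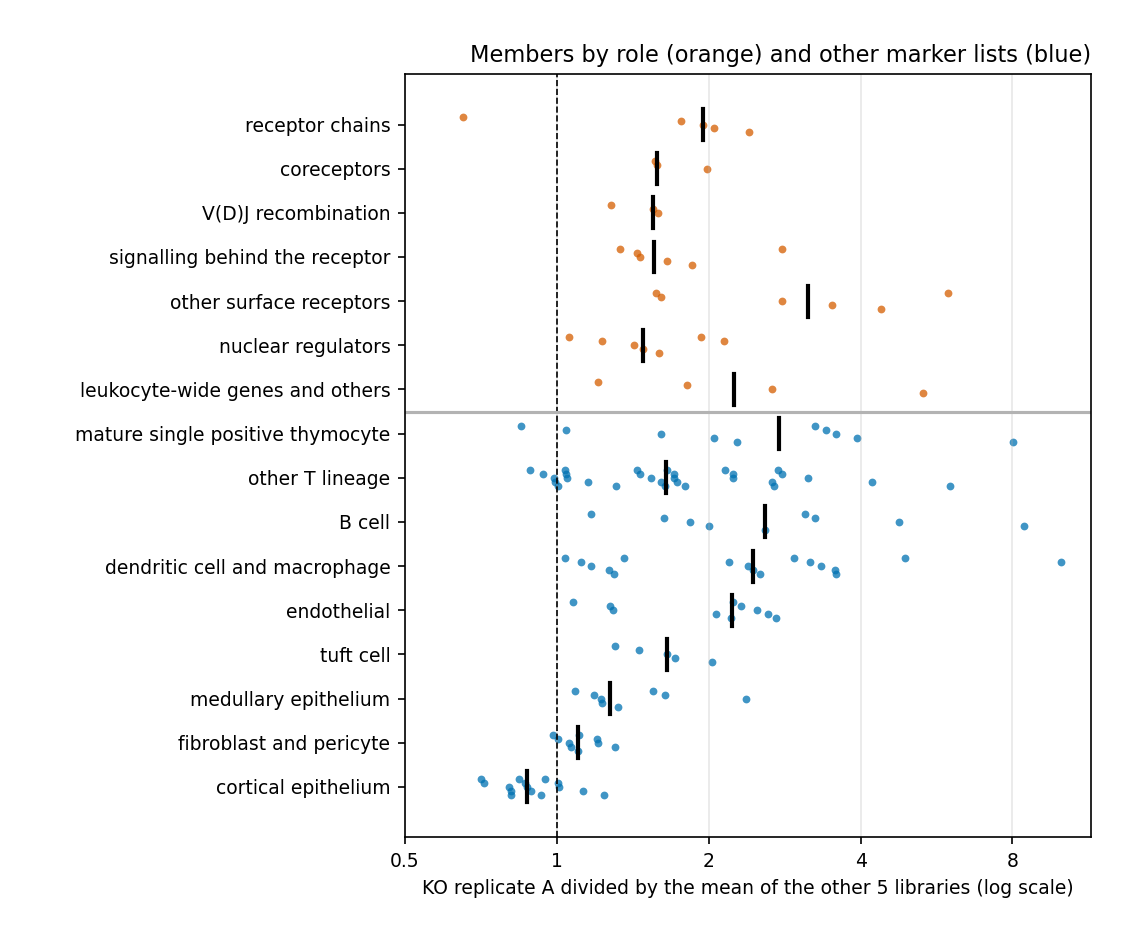
Level in KO replicate A divided by the mean of the other 5 libraries, on a log axis, for the T lineage members by role (orange) and for other marker lists (blue); each point is a gene and each bar a median. Psmb11, a cortical gene with a ratio of 0.0119, is not drawn, so the cortical bar leaves it out. Among the lists drawn, the median is lowest for cortical epithelium (0.87 with Psmb11 counted) and highest for the other surface receptors (3.15). Lists not drawn include that of natural killer cells, with a median of 4.09.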

How the data were processed

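RNA was extracted with TRIzol and RNeasy columns and prepared with a stranded poly(A) kit, per the labels' protocols. The tools named are bcl2fastq 2.17, STAR 2.5.1b and RSEM 1.2.28, per the submitters' processing notes. Those notes name a human genome build while the gene identifiers are mouse Ensembl identifiers, so the alignment build is uncertain. Gene positions are from GENCODE M21 (GRCm38), which matched 50376 of 50600 identifiers, and promoters are from RefSeq (GRCm38.p6). The authors deposited raw counts per gene for each strand setting, and the opposite-strand counts were used because they held 95.47% to 95.70% of gene counts. Rows naming no gene held 18.43% to 19.81% of counts and were left out. The authors also deposited RSEM expected counts, rounded here, and deposited TPM values, scaled for length; both served in alternatives, and TPM also to compare levels between genes.

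KO was compared with WT by the quasi-likelihood test of edgeR 4.0.16 (R 4.3.3) over the genes kept by filterByExpr, with TMM factors of 0.9937 to 1.0118, no block, and Benjamini-Hochberg adjustment over all genes tested. The method was tested on simulated data. SEs come from the F statistic and are approximate for large changes. The level in KO replicate A was divided by the mean of the other 5 libraries, with a 95% Clopper-Pearson interval from the counts, which covers counting error only. The alternatives tried were normalization by RLE or by upper quartile, DESeq2 1.42.0, limma 3.58.1 on log2(TPM + 1) and log2(TPM + 0.1), no filter or one at a mean level of 5 CPM, expected counts, unstranded counts, a replicate block, leaving out each library and, chosen after seeing the data, a robust quasi-likelihood fit. Values in every library are given for called members, the 2 most abundant members of each role and the 3 highest and 3 lowest ratios; the other genes named are examples chosen after their values were seen. The members and lists were chosen with earlier results of these data known. Figures were drawn with matplotlib 3.10.9.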

Additional observations from a re-analysis of the deposited data

How the results depend on the processing

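The 4 members called higher in KO stayed 4 in number with RLE or upper quartile normalization, RSEM expected counts and unstranded counts, and 0 were called lower in every alternative run. They were 6 with DESeq2 (without Ptprc, and with Cd2, Cd5 and Ikzf1), 3 with a filter at a mean level of 5 CPM, 3 with the robust fit, 9 without the low count filter and 1, Thy1, with limma on either log2(TPM + 1) or log2(TPM + 0.1). The share of all genes called was not computed for these alternatives, and the filters also changed which genes were tested. Leaving out 1 library gave 2 to 10 called, with a share over all genes computed only without KO replicate A. The median log2 fold change was -0.057 to 0.447 over these omissions and above 0 in the other alternatives. The summed level of KO over WT was 1.008 to 1.296 over them, and that of KO replicate A over the other libraries 1.505 to 1.552. With the replicate letter as a block, 4 members were called higher and Lat was at -0.014. Same-letter libraries of the genotypes deviated together with correlations of -0.016 (A), 0.082 (B) and -0.034 (C) over 16938 genes, so the letters were not treated as pairs, and only the B libraries correlated best with their own letter. Other changes of sign were all in uncalled genes: with limma at pseudocounts of 1 and 0.1, Cd3e at -0.039 and -0.071, Rag2 at 0.066 and 0.186 and Themis at 0.047 and 0.081, and with upper quartile normalization Themis at 0.001. Leaving out 1 library changed the sign of 19 members, whose log2 fold changes ranged over -0.351 to 0.447 (Cd3e), -0.026 to 0.802 (Cd3g), -0.196 to 0.374 (Cd247), -0.057 to 0.55 (Cd4), -0.229 to 0.251 (Cd8a), -0.239 to 0.309 (Cd8b1), -0.222 to 0.319 (Rag1), -0.371 to 0.2 (Rag2), -0.26 to 0.029 (Dntt), -0.028 to 0.347 (Lck), -0.109 to 0.875 (Zap70), -0.437 to 0.265 (Lat), -0.219 to 0.107 (Themis), -0.093 to 0.346 (Rhoh), -0.053 to 0.427 (Sla), -0.115 to 1.452 (Il7r), -0.106 to 0.273 (Tcf7), -0.116 to 0.234 (Satb1) and -0.127 to 0.481 (Coro1a). The cause of these changes was not tested beyond the library left out. Ptcra, with at most 7 counts in a library, Rag2, Il7r, Cd53 and Cd2 are limited by counting.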

Other observations

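Of 29 further T lineage genes tested, 6 were called higher in KO and 1 lower, against 12.3% and 10.7% of all genes tested (edgeR). With 1 library left out, 3 (KO replicate A or WT replicate C) to 9 (KO replicate C) were called higher and 1 lower. A share over all genes was computed only for the omission of KO replicate A. Notch1, the receptor that sets T lineage fate and is also expressed by epithelia, had 367, 369 and 420 CPM in KO, against 312.5, 344 and 312 CPM in WT (log2 fold change 0.26, adjusted p = 0.00535). Runx1, a regulator shared by blood and epithelial cells, had 95.4, 110 and 104 CPM in KO, against 84.8, 91.5 and 89.5 CPM in WT (0.22, adjusted p = 0.00886). Neither gene was highest in KO replicate A. Cd69, an activation marker of thymocytes after positive selection, had 50, 16 and 12 counts in KO, against 4, 6 and 2 in WT, and was called with all libraries (log2 fold change 2.66, edgeR adjusted p = 0.0095) but not without KO replicate A (1.81, adjusted p = 0.051) or WT replicate C (2.30, adjusted p = 0.0503). The adaptor gene Grap2 was called lower (-0.51, edgeR adjusted p = 0.00182), also without any 1 library (-0.63 without KO replicate A).

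Among genes of early thymocytes, Kit, the stem cell factor receptor, and Il2ra, the interleukin 2 receptor alpha chain, were called higher in KO, and Dtx1, a Notch target, lower. These were the 3 genes tested of the 6 listed, and over all genes tested 12.3% were called higher and 10.7% lower. Kit had 10.2, 9.35 and 10.7 CPM in KO, against 4.87, 6.62 and 5.55 CPM in WT (log2 fold change 0.825, edgeR adjusted p = 4.59e-04). Kit and Il2ra were also called without any 1 library. Dtx1 was at -0.79 (edgeR adjusted p = 0.0416) and was not called without KO replicate B (-0.54, adjusted p = 0.12), KO replicate C (-0.88, 0.067), WT replicate B (-0.79, 0.111) or WT replicate C (-0.65, 0.167). Lyl1, Hhex and Nfe2 had 0 to 12 counts in each library and were not tested.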
